A study of Mus musculus with 45 samples.

Results

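Whole uterine horn was compared with scraped endometrium in the same mice, to ask how the mucosal fraction differs from the intact organ it was taken from. The libraries were chosen by their titles, as whole uterus or endometrium of either genotype, and they were 30 of the 45 libraries of the series. They came from 14 mice, each with a whole uterus and an endometrium sample. The endometrium of mouse 13 had 3 libraries, which were summed, so that 28 samples entered the comparison. Expression was measured by STRT RNA-seq, which reads messenger RNA from its 5′ end and carries a molecular tag, so that copies made by PCR are counted once.

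The mice were sexually mature young CD-1 females, an outbred stock, and 7 were wildtype (WT) and 7 were Plag1KO (KO). The KO mice carry a lacZ gene in place of the Plag1 reading frame. Both genotypes had been superovulated with 5 IU of pregnant mare serum and, 2 days later, 5 IU of human chorionic gonadotropin. They were killed on the next day, so no sample represents an untreated cycle. In the study's methods, superovulated females were mated with WT males to give zygotes or left unmated to give oocytes. The labels used here do not say which of these mice were mated. The series text names 8 mice per genotype, and the labels used here give 7. The whole uterus sample was a piece of horn left intact, and the endometrium sample was mucosa taken with a scalpel from a horn that had been opened lengthwise. The remaining muscle wall of the same mice, the myometrium, is used below only for values set beside those of the other layers.

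The uterine wall is a tube of layers. A columnar epithelium lines the lumen and dips into the stroma as glands, and together with that stroma forms the endometrium, which receives the embryo and secretes fluid under the control of oestrogen and progesterone. Outside it lie the circular and longitudinal smooth muscle of the myometrium, with a vascular layer carrying blood vessels, lymphatics, nerves and mast cells between them, and a covering of mesothelium. An intact piece of horn holds all of these layers.

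The uterus libraries held 485887 to 1222630 gene counts and the endometrium libraries 256298 to 1014920. A floor of 3 counts corresponded to 2.45 to 6.17 CPM, the count scaled to a common library size, in uterus libraries and to 2.96 to 11.7 CPM in endometrium libraries, and this floor covers counting error only. For depth and spike-in share the 3 endometrium libraries of mouse 13 were averaged and not summed. Depth was 924272 ± 216358 counts in the uterus samples and 650873 ± 205438 in the endometrium samples (SD, n = 14; exact two-sided sign-flip permutation p = 0.00183, adjusted p = 0.00256), and it was higher in the uterus of 12 mice. The synthetic spike-in RNA took 0.952 ± 0.123% of counts in uterus and 1.46 ± 0.648% in endometrium (SD, n = 14; exact p = 0.00256, adjusted p = 0.00256). The uterus libraries lay in plate rows A and D and the endometrium libraries in rows C and F, apart from 2 of the 3 libraries of mouse 13, so plate row and tissue cannot be told apart. Within mice 1 to 8 the difference in depth was 431832 counts (exact p = 0.0078) and within mice 9 to 14 it was 62154 (exact p = 0.344). Plag1 itself reached no more than 1.85 CPM in any sample, under the floor, and so could not check the genotype labels.

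The endometrium samples varied in their content of muscle transcripts. A layer score compared 4 genes of muscle (Acta2, Cnn1, Des, Myh11) with 4 of epithelium (Cdh1, Epcam, Krt18, Krt8), as the difference of their mean log2(CPM + 1), positive where the epithelial genes were higher. It is given as a description with no test. The score ranged from -4.77 to -2.63 in whole uterus, with a median of -3.26, and from -3.86 to 3.56 in endometrium, with a median of 0.93. Myometrium lay lower, at -8.39 to -4.22. Of the 14 endometrium samples, 12 scored above every whole uterus sample. The other 2, WT mouse 3 at -3.86 and KO mouse 13 at -3.16, lay within the range of whole uterus, and WT mouse 1 was the next lowest at -1.86. The 3 separate libraries of mouse 13 scored -3.23, -3.28 and -3.07. The summed level of the 20 listed smooth muscle genes was 25265 CPM in the endometrium of mouse 3 and 26803 CPM in that of mouse 13, against a median of 2117 CPM over the 14 endometrium samples. Calls and values without these mice are given beside the lists they bear on most.

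**Figure D1:**
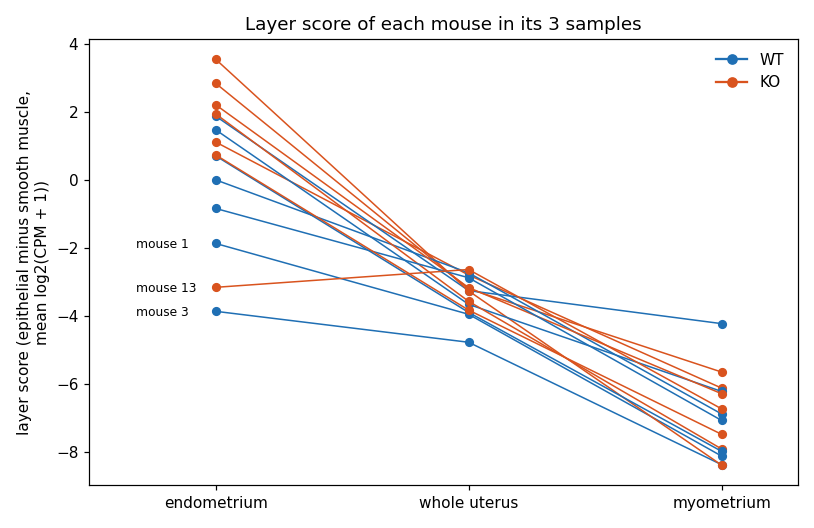
Layer score of each mouse in its 3 samples (y axis, epithelial minus smooth muscle mean of log2(CPM + 1); x axis, tissue), with each line joining the samples of 1 mouse, WT in blue and KO in orange. The endometrium points of mice 3 and 13 sit at -3.86 and -3.16, within the whole uterus range of -4.77 to -2.63, and mouse 1 is at -1.86.

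Across the transcriptome, 14194 genes were tested with the mouse as a block (edgeR quasi-likelihood F test, Benjamini-Hochberg adjusted p under 0.05). Of these, 1626 passed, 925 (6.52%) with higher levels in whole uterus and 701 (4.94%) with higher levels in endometrium. The genes higher in uterus moved further. Beyond 1 on the log2 scale there were 410 and 325 genes in the same order, and beyond 2 there were 175 and 20. The median log2 fold change over all genes tested was -0.06, where positive values are higher in uterus, as in all fold changes below. With counts scaled to the spike-in RNA, this median moved to 0.20 and the calls to 945 and 87. The calls higher in endometrium thus changed far more in that fit than those higher in uterus. The spike-in fit also took each gene's spread wholly from the trend over genes (prior degrees of freedom infinite, against 31.1 in the main fit). The part of the scaling alone was not tested. A ± beside a fold change is an SE worked out from the F statistic of the fit to 14 mice. That fit shares information on the spread between genes, so the SE is not the spread between mice of that gene alone. In mice 1 to 8 alone 1144 genes passed and in mice 9 to 14 alone 193. Without mice 3 and 13 the count was 1329, of which 1204 were among the 1626. In bulk samples of this kind, fewer cells of a type and less RNA per cell cannot be told apart.

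Smooth muscle genes were higher in the intact horn throughout. All 20 genes of the list were higher in whole uterus, against 6.52% of all genes tested, with a median log2 fold change of 3.10 against -0.06. Acta2, the actin of smooth muscle thin filaments, was at 2339 to 5349 CPM in whole uterus (median 3356) and at 16.9 to 3791 CPM in endometrium (median 170). The uterus values were tight and the endometrium values spread over more than 2 orders of magnitude, and they overlapped only through mice 3 and 13, at 3791 and 3130 CPM. For Acta2 the log2 fold change was 3.92 ± 0.40 (edgeR adjusted p = 7.26e-10; higher in uterus in 14 of 14 mice). Cnn1, calponin, which binds actin and restrains the myosin motor, was at 733 to 1784 CPM in uterus and at 7.67 to 1080 CPM in endometrium, with medians of 1081 and 51.4 (log2 fold change 4.00 ± 0.38, edgeR adjusted p = 1.55e-10, 14 of 14 mice). Tagln, which bundles actin and overlaps Pcsk7 on the opposite strand, differed by 4.38 ± 0.42. Myh11, the smooth muscle myosin heavy chain, was at 308 to 1135 CPM against 5.57 to 699 CPM (3.41 ± 0.40, 12 of 14 mice). Des, the intermediate filament of muscle, differed less, by 2.31 ± 0.25, with 170 to 3238 CPM left in the endometrium samples.

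The contractile apparatus as a whole followed. Actg2, the enteric smooth muscle actin, differed by 4.00 ± 0.41, the tropomyosins Tpm2 and Tpm1 by 3.84 ± 0.34 and 3.16 ± 0.28, and the myosin light chain Myl9 by 3.70 ± 0.37. Pcp4, a small modulator of calmodulin, had the widest gap of the list, with 841 to 1994 CPM in uterus (median 1379) and 5.57 to 955 CPM in endometrium (median 34.3), and a log2 fold change of 4.69 ± 0.43 (edgeR adjusted p = 4.99e-11, 14 of 14 mice). Its gene overlaps Igsf5 on the same strand, so some of its counts are uncertain, and the actin genes share near-identical coding sequence. The lowest values of the list were those of Cald1, caldesmon, at 0.61 ± 0.18, and Flna, filamin A, at 1.12 ± 0.20, proteins that non-muscle cells also use. Within mice 1 to 8 all 20 genes passed and within mice 9 to 14, where mouse 13 was 1 of 6, 14 passed. Without mice 3 and 13 all 20 passed and the median rose to 3.59.

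Serum response factor drives many smooth muscle genes through the CArG box, a short AT-rich motif, and the promoters of the list were searched for it in RefSeq windows (GRCm38.p6) from 250 bases before to 50 after the start. The search took only the strict form, which is CC, then 6 letters of A or T, then GG. A box with another letter inside was not counted, as with ccctatatgg and ccttgtttgg in the Acta2 window. Of the 16 list members with a window, 2 held the strict form, Myl9 and Cnn2. Their upstream 250 bases are shown because they are the members of the list in which these letters occur. Capitals mark the motif, which begins 161 bases before the Myl9 start and 56 bases before the Cnn2 start. Myl9 lies at chr2:156775214-156775463 and Cnn2 at chr10:79988350-79988599, both on the plus strand.
Myl9: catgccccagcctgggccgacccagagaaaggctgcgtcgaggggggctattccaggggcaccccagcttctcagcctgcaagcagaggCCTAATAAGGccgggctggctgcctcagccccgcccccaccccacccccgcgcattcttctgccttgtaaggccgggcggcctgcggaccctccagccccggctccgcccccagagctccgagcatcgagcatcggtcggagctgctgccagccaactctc
Cnn2: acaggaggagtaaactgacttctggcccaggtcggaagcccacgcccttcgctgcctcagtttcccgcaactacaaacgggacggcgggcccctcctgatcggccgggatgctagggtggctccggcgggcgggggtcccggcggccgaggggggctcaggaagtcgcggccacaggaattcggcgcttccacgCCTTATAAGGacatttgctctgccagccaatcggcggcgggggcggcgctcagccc

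The strict form of the CArG box was searched on both strands. It was present in 1.61% of the promoters of all genes tested, in 4.16% of those of genes higher in uterus and in 1.86% of those of genes higher in endometrium. Of the 13 epithelial list members with a window, 0 held it. The letters TATAAA, searched on both strands, were in 12.5% of the smooth muscle windows and in 9.15% of those of all genes tested. Both genes with the motif were higher in uterus, Myl9 at 1432 to 3025 CPM against 33.7 to 2823 CPM, and Cnn2, a calponin also found outside muscle, at 309 to 681 CPM against 46.6 to 447 CPM (1.45 ± 0.15, 14 of 14 mice). A match is a description of letters and not a binding site.

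Genes of contraction coupling were less uniform than those of the filaments. Of 11 tested, 2 were higher in uterus and 0 in endometrium, against 6.52% and 4.94% of all genes tested, with a median of 0.89. Without mouse 13, 4 were higher in uterus. Kcnmb1, the beta subunit of the calcium-activated potassium channel of smooth muscle, was at 13.5 to 125 CPM in uterus and at 0 to 42.5 CPM in endometrium (3.28 ± 0.40, edgeR adjusted p = 5.5e-08, 14 of 14 mice). Ptger3, a prostaglandin E2 receptor, differed by 2.61 ± 0.48. Oxtr, the oxytocin receptor, had a median of 6.85 CPM in uterus and 0.581 CPM in endometrium, near or under the floor, and it missed the threshold at 1.52 ± 0.55 (edgeR adjusted p = 0.063). Gja1, the gap junction protein that couples muscle cells, and Ano1, a calcium-activated chloride channel, were at 0.20 ± 0.24 and -0.45 ± 0.26, neither past the threshold.

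Transcripts usually linked to striated muscle were also higher in the intact horn, 7 of 9 tested against 6.52% of all genes, with a median of 2.07. Acta1, the skeletal muscle actin, was at 57.5 to 290 CPM in uterus and at 0 to 127 CPM in endometrium (3.77 ± 0.33, edgeR adjusted p = 4.99e-11, 14 of 14 mice). The troponins Tnnt3 and Tnni2 differed by 4.10 ± 0.42 and 2.68 ± 0.34, and Ckm, muscle creatine kinase, by 2.02 ± 0.40. The skeletal myosin Myh4 was at 0 in every sample, and 1 of the 7, the troponin Tnnc2, had 1 count in all endometrium libraries together, for which no fold is given. In the endometrium the list's summed level was highest in mouse 13, at 193 CPM, against a median of 14.8 CPM. Without mice 3 and 13 the striated muscle count was 7 and the median 2.99, and the log2 fold change of Acta1 was 4.54.

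**Figure D2:**
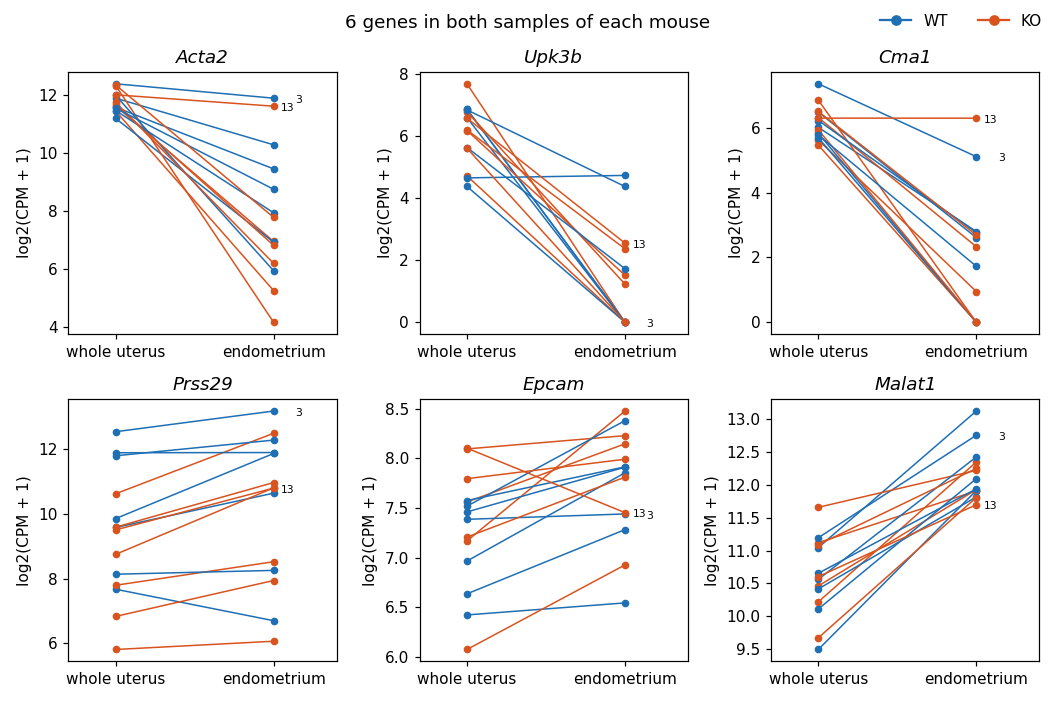
Levels of 6 genes in both samples of each mouse (y axis, log2(CPM + 1); x axis, tissue; WT blue, KO orange; the endometrium points of mice 3 and 13 carry their numbers). Acta2 drops from 3356 CPM at the median in whole uterus to 170 CPM in endometrium, with nearly flat lines in mice 3 and 13, Cma1 is flat in mouse 13 only, Upk3b drops in 13 of 14 mice, Prss29 and Epcam shift by less than they vary between mice, and Malat1 is higher in endometrium in every mouse.

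The mast cell proteases had the highest median of all lists, 3.52. In this list 4 of 6 genes were higher in uterus and 0 in endometrium, against 6.52% and 4.94% of all genes tested. Mast cells are tissue-resident immune cells that store proteases and histamine in granules. Cma1, a chymase, was at 43.2 to 163 CPM in uterus (median 68.7) and at 0 to 77.7 CPM in endometrium (median 3.17), with 5 endometrium samples at 0. Mice 3 and 13 had 33.5 and 77.7 CPM of Cma1 in the endometrium, and no other mouse had more than 5.96 CPM. These are the endometrium samples with the most muscle transcripts, and without mice 3 and 13 the mast cells list again had 4 calls, with a median of 4.24 and a log2 fold change of Cma1 of 4.78. The log2 fold change was 3.79 ± 0.36 (edgeR adjusted p = 1.28e-10, 14 of 14 mice), although in mouse 13 both samples rounded to 77.7 CPM. Mcpt4, another chymase, was at 0 in 8 endometrium samples and at 29.7 CPM or more in every uterus (4.01 ± 0.43). Tpsb2, a tryptase with a close relative in the genome that could share its reads, and Cpa3, a carboxypeptidase, differed by 3.67 ± 0.37 and 3.37 ± 0.44. Because many endometrium values are 0, the size of these fold changes depends on the prior count. Kit, the receptor for stem cell factor, which other cells also carry, was at -0.65 ± 0.40 and did not pass.

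The mesothelial list had 6 of 8 genes higher in uterus and 0 in endometrium, against 6.52% and 4.94% of all genes tested, and a median of 2.45. Mesothelium is the flat epithelium of the serosal surface. Upk3b, a uroplakin characteristic of it, was at 19.8 to 205 CPM in uterus (median 83.4) and at 0 to 25.6 CPM in endometrium (median 0.672), with 7 endometrium samples at 0 (4.44 ± 0.41, edgeR adjusted p = 7.05e-11, 13 of 14 mice). Msln, mesothelin, was at 5.75 to 51.7 CPM against 0 to 24.3 CPM (3.32 ± 0.48). Lrrn4, a leucine-rich repeat protein, and Gpm6a, a membrane glycoprotein, had 5 and 8 counts in all endometrium libraries together, and differed by 3.96 ± 0.58 and 2.77 ± 0.57. Wt1, a transcription factor that stroma also uses, was at -0.44 ± 0.35. The endometrium of mouse 13, rich in muscle transcripts, had 4.85 CPM of Upk3b and that of mouse 3 had 0. The highest endometrium values of Upk3b were those of WT mice 8 and 10, at 25.6 and 19.7 CPM, against 24.2 and 114 CPM in their uteri.

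Lymphatic genes were mostly higher in the intact horn and blood vessel genes mostly did not pass. Of 5 lymphatic endothelial genes 4 were higher in uterus (median 1.95), and of 14 blood endothelial genes 1 was higher in uterus and 1 in endometrium (median -0.17). The shares over all genes tested were 6.52% and 4.94%. Lyve1, a hyaluronan receptor of lymphatic endothelium and of some macrophages, was at 14.5 to 79.9 CPM in uterus and at 0 to 27.1 CPM in endometrium (2.73 ± 0.36, edgeR adjusted p = 3.1e-07, 14 of 14 mice). Without mice 3 and 13 all 5 lymphatic endothelium genes passed, with a median of 2.98 and a log2 fold change of Lyve1 of 3.60. Pdpn, podoplanin, and Flt4, the receptor for lymphatic growth factors, differed by 1.95 ± 0.33 and 1.96 ± 0.46, while Prox1, the lymphatic master regulator, was near the floor and did not pass. Among blood vessel genes, Pecam1 and Cdh5, the adhesion molecules of endothelial junctions, were at -0.29 ± 0.22 and -0.47 ± 0.27 and did not pass. Cldn5, the endothelial tight junction protein, was higher in uterus in 14 of 14 mice (38.7 against 9.07 CPM at the medians, 1.79 ± 0.25), and Flt1, a VEGF receptor, was higher in endometrium (-1.05 ± 0.34, edgeR adjusted p = 0.033), a call lost under 17 of the 34 alternative settings.

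Pericyte, nerve and fat genes were few, and the share higher in uterus over all genes tested was 6.52%. Of 8 pericyte genes, 2 were higher in uterus, Kcnj8 (1.22 ± 0.22) and Mcam (1.16 ± 0.30), both expressed in vascular smooth muscle as well, and the median was 0.14. Of 5 nerve and Schwann cell genes, Uchl1, a neuronal ubiquitin hydrolase, and Mbp, a myelin protein, were higher in uterus (1.81 ± 0.46 and 0.98 ± 0.31; list median 0.98). Of 4 adipocyte genes, Fabp4, a fatty acid carrier also present in capillaries, and Car3, carbonic anhydrase 3, were higher in uterus (2.81 ± 0.36 and 2.31 ± 0.59; list median 1.53), and the defining Adipoq and Plin1 were too low to be tested. The red cell list had 1 testable gene, Alas2, at 0.70 ± 0.40, and the alpha and beta globin genes of the list were at 0 in every uterus and endometrium sample.

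**Figure D3:**
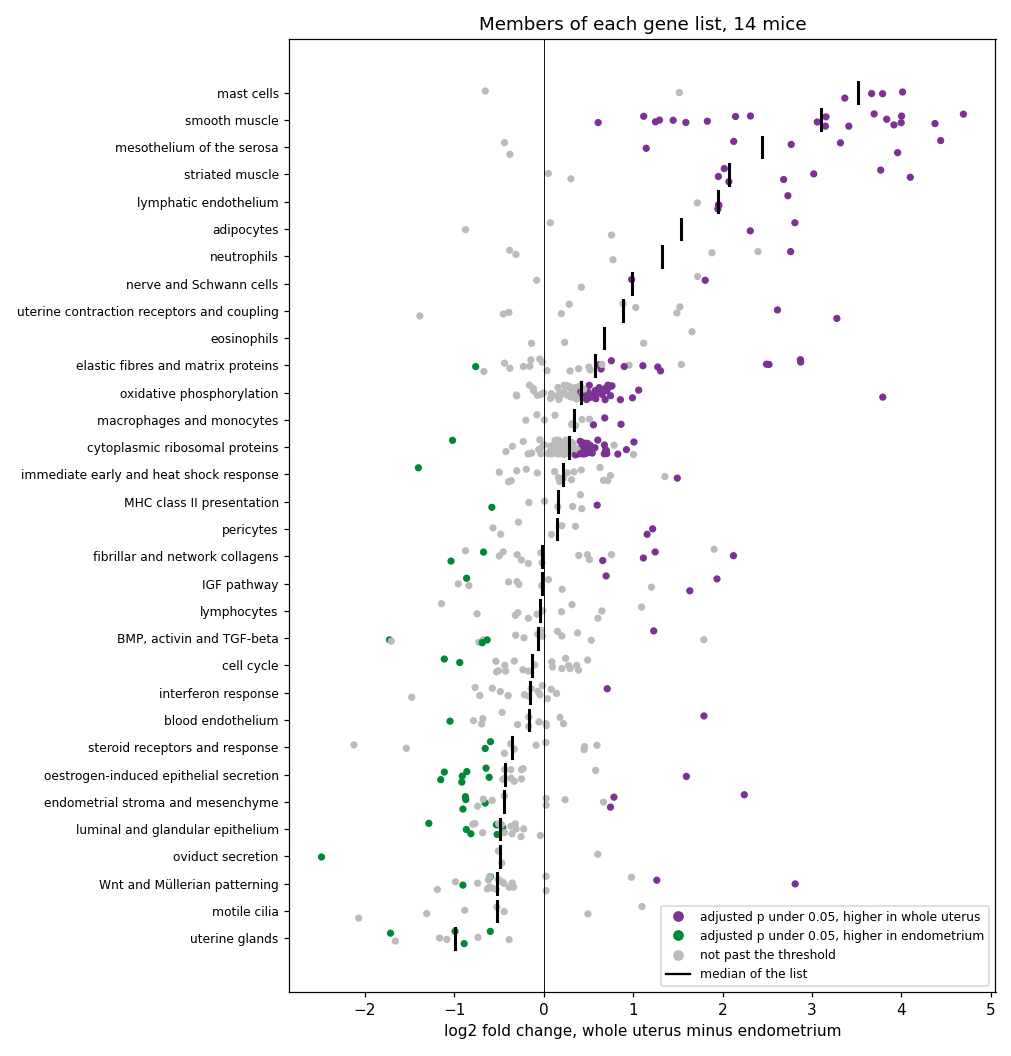
Log2 fold change of each tested member of each gene list (x axis, whole uterus minus endometrium; 1 row per list, ordered by median), in purple where higher in whole uterus and in green where higher in endometrium at an adjusted p under 0.05, grey otherwise, with the list median as a black bar. Mast cell, smooth muscle and mesothelial lists have medians of 3.52, 3.10 and 2.45, and the gland list has the lowest, -0.99.

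The epithelium differed by much less than the muscle. All 20 epithelial genes tested were lower in uterus in sign, with a median of -0.49 against -0.06 over all genes, and 6 of the 20 passed, against 4.94% of all genes tested. Without mouse 10 the number was 3. With spike-in scaling 0 passed and the median was -0.21 against 0.20 over all genes. Epcam, the epithelial adhesion molecule, was at 66.5 to 274 CPM in uterus (median 171) and at 92.4 to 355 CPM in endometrium (median 235). The ranges overlapped almost throughout, and the endometrium was higher within 13 of 14 mice, by 0.46 ± 0.14 on the log2 scale (edgeR log2 fold change -0.46, adjusted p = 0.0295). The call was lost under 16 of the 34 alternative settings. Cldn3, a tight junction protein, was at -0.52 ± 0.15. The transcription factors Grhl2 and Ehf, which maintain epithelial identity, were at -1.29 ± 0.34 and -0.87 ± 0.22, and the protease inhibitor Spint1 was at -0.82 ± 0.21. Cdh1, E-cadherin, was at 3.18 to 35.1 CPM against 9.02 to 85.9 CPM and missed the threshold at -0.68 ± 0.25 (edgeR adjusted p = 0.064). The keratins Krt8 and Krt18, at -0.32 ± 0.14 and -0.31 ± 0.15, did not pass either. Within mice 1 to 8 the epithelial count was 2 and within mice 9 to 14 it was 0, with medians of -0.47 and -0.43.

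The gland list had the lowest median of all, -0.99, with 4 of 9 genes higher in endometrium, against 4.94% of all genes tested. Uterine glands secrete proteases, their inhibitors and growth factors into the lumen. Prss29, a tryptase-like implantation protease, was at 55.1 to 5976 CPM in uterus (median 747) and at 65.9 to 9311 CPM in endometrium (median 1788). The spread between mice far exceeded the difference within them, and 13 of 14 mice had more in the endometrium (-0.89 ± 0.17, edgeR adjusted p = 0.00028). Prss28, its near relative, was at -0.99 ± 0.22, and the 2 genes may share reads. Sox9, a transcription factor of glandular epithelium, was at 7.73 to 39 CPM against 23.6 to 200 CPM, higher in endometrium in 12 of 14 mice (-1.71 ± 0.25, edgeR adjusted p = 3.1e-06). It was the only 1 of the 4 to pass with spike-in scaling. Spink1, a trypsin inhibitor, was at -0.60 ± 0.19 and lost its call under 19 of the 34 alternatives. Foxa2, which is needed for gland formation, had medians of 1.12 and 3.84 CPM, near or under the floor, and Klk1, a kallikrein, was at -0.39 ± 0.24.

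Secretory genes that oestrogen induces in the epithelium went the same way as the glands, with a median of -0.44. Of 18 tested, 7 were higher in endometrium and 1 in uterus, against 4.94% and 6.52% of all genes tested. Ltf, lactoferrin, an iron-binding antimicrobial protein, had medians of 509 and 656 CPM (-0.65 ± 0.16), and Clca1, a secreted regulator of chloride channels, was at 0 to 499 CPM against 0 to 1133 CPM (-1.11 ± 0.24). Wfdc18, a small secreted protein with a protease inhibitor fold, had medians of 67.0 and 154 CPM and was higher in endometrium in 13 of 14 mice (-1.15 ± 0.17, edgeR adjusted p = 2.8e-06). Aqp5, a water channel, was at -0.92 ± 0.17, and Hdc, which makes histamine, was at -0.91 ± 0.20. Lcn2 and C3, both strongly induced by oestrogen, were at -0.37 ± 0.15 and -0.23 ± 0.18 and did not pass. The gene that went the other way was Slpi, the secretory leukocyte protease inhibitor, at 19.8 to 173 CPM in uterus and 0 to 39.6 CPM in endometrium (1.59 ± 0.26, edgeR adjusted p = 1.4e-05, 13 of 14 mice). With spike-in scaling the list's counts were 1 higher in uterus and 1 in endometrium.

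Ovgp1, the glycoprotein that oviduct epithelium secretes, was the 1 gene of 4 tested on the oviduct list to pass. The shares over all genes tested were 4.94% higher in endometrium and 6.52% higher in uterus. It was at 1.05 to 86.8 CPM in uterus (median 13.6) and at 7.36 to 5058 CPM in endometrium (median 74.5), and it was higher in endometrium in 11 of 14 mice (-2.49 ± 0.42, edgeR adjusted p = 3.6e-05). Without mouse 8 the log2 fold change of Ovgp1 was -2.13. Its gene overlaps Wdr77 on the same strand. The value of 5058 CPM was that of WT mouse 8, whose uterus held 82.8 CPM, and KO mice 9 and 4 followed with 490 and 303 CPM in the endometrium. Pax8, a transcription factor of the Müllerian epithelium, was at -0.51 ± 0.24, and the list median was -0.49. The other tested members, Dmbt1 and Itln1, were at -0.47 ± 0.99 and 0.60 ± 0.70, with medians near or under the floor, and did not pass. Of 7 testable genes of motile cilia 0 passed in edgeR, where 3 had an unadjusted p under 0.05, and 1 passed in DESeq2, higher in uterus (edgeR median -0.52). Of these, 5 were negative and 2 positive in sign, while the summed level of the list was higher in uterus in 11 of 14 mice. Tppp3, a positive member, was at 0.49 ± 0.21. Foxj1, which switches on the cilia programme, reached 60.1 CPM in the endometrium of the same mouse 8, against at most 7.67 CPM in any other sample.

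Stromal genes went both ways. Of 15 tested, 3 were higher in uterus and 4 in endometrium (2 in endometrium without mouse 6), against 6.52% and 4.94% of all genes tested. The list median was -0.44, while the summed level of the list was higher in uterus in 14 of 14 mice. Its most abundant members were among those higher in uterus. Dcn, decorin, a collagen-binding proteoglycan, was at 1082 to 2416 CPM against 558 to 1655 CPM (0.78 ± 0.14, edgeR adjusted p = 9.3e-05, 14 of 14 mice). Lum, lumican, differed by 2.24 ± 0.29 and Vim, vimentin, by 0.75 ± 0.14. The genes higher in endometrium were regulators. Pdgfra, the receptor of platelet-derived growth factor on fibroblasts, was at -0.87 ± 0.23, and Nr2f2, a nuclear receptor of the stroma, was at 13.4 to 62.8 CPM against 33.2 to 92.9 CPM (-0.88 ± 0.19, 13 of 14 mice). Esr1, the oestrogen receptor alpha, was at -0.65 ± 0.19 and Wnt5a at -0.90 ± 0.30, calls that were lost under 10 and 19 of the 34 alternatives. Hand2 and Hoxa10, which mediate progesterone responses in the stroma, were at 0.03 ± 0.19 and 0.03 ± 0.15. With spike-in scaling 4 stromal genes were higher in uterus and 0 in endometrium.

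Matrix genes leaned to the intact horn. Of 28 elastic fibre and matrix protein genes, 11 were higher in uterus and 1 in endometrium, against 6.52% and 4.94% of all genes tested (median 0.57). Sparc, a collagen chaperone of the matrix, was at 1205 to 2766 CPM against 359 to 1470 CPM (1.11 ± 0.15, edgeR adjusted p = 9.7e-07, 14 of 14 mice). Postn, periostin, had medians of 79.9 and 7.04 CPM (2.87 ± 0.36), and Prelp, a basement membrane proteoglycan, differed by 2.52 ± 0.30. Fbn1, fibrillin 1, was the 1 member higher in endometrium (-0.76 ± 0.23), and Eln, elastin, was at -0.16 ± 0.35. Of 19 collagens 4 were higher in uterus and 2 in endometrium (median -0.02). The fibrillar Col1a1 and Col3a1 were at 0.66 ± 0.18 and 1.11 ± 0.24 and the fibril-associated Col12a1 and Col14a1 at 2.12 ± 0.39 and 1.25 ± 0.30. The basement membrane collagens Col4a1 and Col18a1 were at -0.67 ± 0.18 and -1.04 ± 0.19.

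Among the other immune lists, calls were few, against 6.52% of all genes tested higher in uterus and 4.94% higher in endometrium. Of 12 macrophage genes 3 were higher in uterus and 0 in endometrium (median 0.34). C1qa, a complement component made by tissue macrophages, was at 189 to 551 CPM against 29.4 to 448 CPM (0.68 ± 0.16), and the adaptor Tyrobp and the lysozyme Lyz2 were at 0.86 ± 0.18 and 0.56 ± 0.16, whereas Csf1r and Adgre1, which define the lineage, were at 0.36 ± 0.22 and 0.13 ± 0.40. Of 7 MHC class II genes, Cd74, the invariant chain, was higher in uterus (0.60 ± 0.15) and H2-Aa, a class II chain, was higher in endometrium (-0.58 ± 0.16; list median 0.16). Of 12 lymphocyte genes 0 passed in edgeR and 0 in DESeq2, with 1 at an unadjusted p under 0.05 in edgeR, and the list median was -0.04. Of 6 neutrophil genes 1 was higher in uterus, Retnlg, a resistin-like protein of neutrophil granules (0 to 113 CPM against 0 to 31.6 CPM, 2.76 ± 0.36; list median 1.33). Of 4 eosinophil genes 0 passed in edgeR and 0 in DESeq2, with 1 at an unadjusted p under 0.05 (median 0.68).

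**Figure D4:**
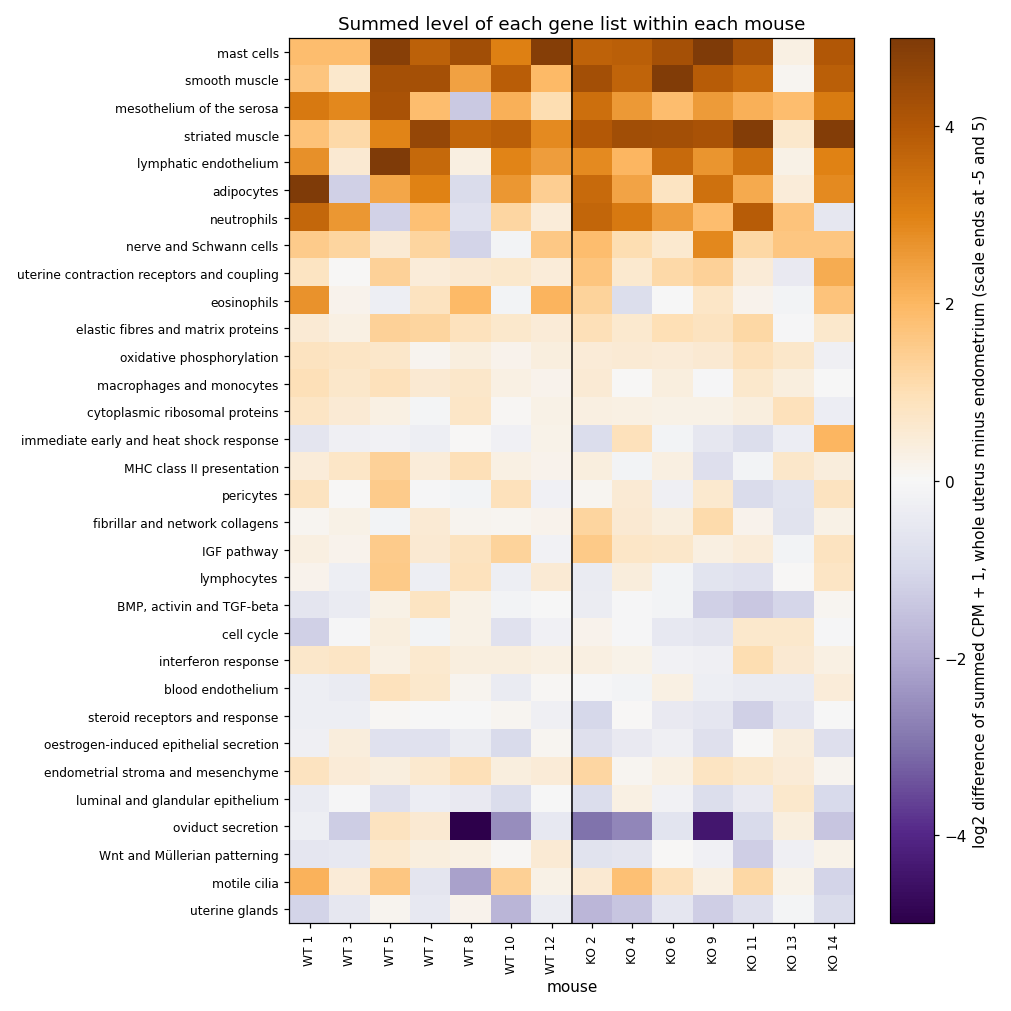
Log2 difference of the summed CPM + 1 of each list, whole uterus minus endometrium, in each mouse (columns, 7 WT then 7 KO; rows, lists in order of median; the colour scale ends at -5 and 5). Smooth muscle is at 0.08 in KO mouse 13 and 0.65 in WT mouse 3 and between 1.64 and 4.94 in the others, and the oviduct list is at -5.22 in WT mouse 8. Ovgp1 alone made up 5058 of the 5140 CPM of that list in the endometrium of mouse 8.

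Of 22 Wnt and Müllerian patterning genes 2 were higher in uterus and 2 in endometrium, against 6.52% and 4.94% of all genes tested. The list median was -0.52, and 17 of 22 were negative in sign. Counts this small are not read as a property of a list, here or in the lists that follow. The endometrium count of the Wnt and Müllerian patterning list was 0 to 4 when 1 mouse was left out, with 0 without mouse 3, 6 or 11 and 4 without mouse 14. Rspo3, a secreted amplifier of Wnt signals, was at 12.1 to 145 CPM in uterus and 0 to 33.5 CPM in endometrium (2.81 ± 0.32, edgeR adjusted p = 1.3e-08, 14 of 14 mice). The secreted Wnt antagonists Sfrp4 and Sfrp2 went opposite ways, at 1.26 ± 0.19 and -0.60 ± 0.19. The Wnt ligands Wnt4 and Wnt7a were at -0.58 ± 0.37 and -0.53 ± 0.63, not past the threshold. Of 17 BMP, activin and TGF-beta genes 1 was higher in uterus and 3 in endometrium (median -0.07), and the counts were 1 to 2 and 2 to 4 when 1 mouse was left out, with 2 in uterus without mouse 5, 11, 12 or 13. Bmp7, a ligand that limits oestrogen-driven epithelial growth, was at 0 to 6.90 CPM against 2.77 to 29.8 CPM (-1.73 ± 0.36, 13 of 14 mice), Tgfb2 was at -0.69 ± 0.20, and the TGF-beta family member Gdf10 was at 1.23 ± 0.34.

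Of 13 genes of the IGF pathway 3 were higher in uterus and 1 in endometrium, against 6.52% and 4.94% of all genes tested (median -0.02). Igfbp6, which sequesters IGF2, was at 613 to 1375 CPM against 157 to 911 CPM (1.63 ± 0.17, edgeR adjusted p = 1.3e-09, 14 of 14 mice), and the ligand Igf1 was at 0.70 ± 0.18. The receptor Igf1r was higher in endometrium in 14 of 14 mice (6.03 to 32.9 CPM against 21.5 to 62.6 CPM, -0.86 ± 0.20). Igf2, a known target of PLAG1, had medians of 3.87 and 1.58 CPM and did not pass (1.20 ± 0.51). Of 12 steroid receptor and response genes 0 were higher in uterus and 2 in endometrium (median -0.35), which were Esr1 and Fkbp4, a chaperone of the progesterone receptor (-0.60 ± 0.17). Pgr, the progesterone receptor, was at -0.44 ± 0.23.

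Immediate early, cell cycle and interferon genes had 1 to 2 calls per list, against 6.52% of all genes tested higher in uterus and 4.94% higher in endometrium. Of 21 immediate early and heat shock genes, Atf3, a stress-induced factor, was higher in uterus (1.49 ± 0.41) and Jund was higher in endometrium (-1.40 ± 0.26), with a median of 0.22 and Fos and Jun at 0.63 ± 0.46 and 0.34 ± 0.21. Of 20 cell cycle genes 2 were higher in endometrium, Top2a at -0.94 ± 0.26 and Mki67 at -1.11 ± 0.34 (median -0.14), the latter lost under 14 of the 34 alternatives. Of 16 interferon response genes 1 was higher in uterus, Bst2, which tethers budding viruses (0.71 ± 0.14; median -0.16). Summed levels went against the medians in 2 of these lists. The interferon sum was higher in uterus in 12 of 14 mice, and the immediate early sum was higher in endometrium in 10 of 14.

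The genes with the largest changes towards the endometrium under the naming rule belonged to no single list. That rule asked for an average log2 CPM of at least 5, an adjusted p under 0.05 and the same direction in at least 13 of 14 mice. It left out larger changes, as 20 called genes lay beyond -2. Among the genes left out were Ovgp1 of the oviduct list (-2.49, 11 of 14 mice) and Sox9 of the gland list (-1.71, 12 of 14 mice). Myh14, a non-muscle myosin heavy chain of epithelia, was at 1.15 to 34.8 CPM in uterus (median 14.3) and at 18.4 to 142 CPM in endometrium (median 42.1), higher in endometrium in 14 of 14 mice (-1.84 ± 0.24, edgeR adjusted p = 2.78e-07). Dio2, the deiodinase that activates thyroid hormone, was at -1.71 ± 0.24, and Tfcp2l1, an epithelial transcription factor, at -1.55 ± 0.21. Sox4, a transcription factor of progenitor cells, was at 22.2 to 177 CPM against 53.8 to 466 CPM (-1.25 ± 0.15, 14 of 14 mice). The histone methyltransferase gene Ehmt2, the cystathionine synthase gene Cbs, the zinc finger gene Zbtb20 and the aminopeptidase gene Anpep were at -1.54 ± 0.23, -1.45 ± 0.24, -1.44 ± 0.21 and -1.28 ± 0.25. H2-D1, a class I molecule with near-identical relatives that could share its reads, and Ly6a, a surface antigen, were at -1.27 ± 0.23 and -1.50 ± 0.26. Single mice departed from 2 of these values. H2-D1 was at 39.5 CPM in the uterus and 996 CPM in the endometrium of WT mouse 7, without which the log2 fold change of H2-D1 was -1.05. Dio2 was higher in the uterus of WT mouse 10, without which the log2 fold change of Dio2 was -1.82.

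Malat1, a long noncoding RNA kept in the nucleus, was 1 of only 2 genes whose endometrium values all lay above its uterus values (0.0141% of the genes tested; the other was Lrp10). It lies on chromosome 19 from 5795690 to 5802671 on the minus strand (mm9) and overlaps Gm20417 on the other strand. It was at 723 to 3224 CPM in uterus (median 1534) and at 3313 to 8868 CPM in endometrium (median 4136), and the difference was -1.56 ± 0.14 (edgeR adjusted p = 4.99e-11, 14 of 14 mice). Its call was kept under all 34 alternative settings, spike-in scaling, mice 1 to 8 only and mice 9 to 14 only included. Unlike the smooth muscle genes it did not stand apart in mice 3 and 13, at 2342 and 1555 CPM in uterus against 6876 and 3313 CPM in endometrium. The intact horn was also below the myometrium, with a log2 fold change for Malat1 of -1.998 (edgeR adjusted p = 1.51e-14), and so below both tissues that had been scraped apart. Neat1, a neighbouring nuclear noncoding RNA, looked up after these values were seen, was at -1.48 ± 0.27 against endometrium and -1.57 against myometrium. Lrp10, a lipoprotein receptor relative, was at 6.03 to 27.0 CPM in uterus and at 27.9 to 62.6 CPM in endometrium (-1.22 ± 0.20).

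In the other direction 10 genes (0.0705% of those tested) had every uterus value above every endometrium value, in mice 3 and 13 as well. They are named because of that separation, after their values were seen. Smoc2, a matricellular calcium-binding protein, was at 61.0 to 259 CPM against 14.7 to 40.3 CPM (2.17 ± 0.18, edgeR adjusted p = 4.63e-11). Fxyd1, phospholemman, a regulator of the sodium pump, was at 424 to 1016 CPM against 76.0 to 334 CPM (1.47 ± 0.14). Stmn2, a neuronal microtubule regulator, was at 35.2 to 95.4 CPM against 0 to 34.2 CPM (2.57 ± 0.26). The respiratory chain subunits Cox7c and Cox8b were at 1464 to 2298 against 709 to 1435 CPM and at 8.05 to 34.9 against 0 to 5.38 CPM. Tceal3, Atcayos, Gpr83, Lin7b and Tstd3 completed the group, with log2 fold changes of 2.06 to 3.45, and apart from Tceal3 their endometrium values did not exceed 6.47 CPM.

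Some genes of energy metabolism and translation were higher in the intact horn. Of 72 oxidative phosphorylation genes 35 were higher in uterus and 0 in endometrium, against 6.52% and 4.94% of all genes tested, with a median of 0.41, and 37 did not pass. Cox6c, a subunit of cytochrome oxidase, was at 1766 to 4595 CPM against 721 to 2500 CPM (0.99 ± 0.13, edgeR adjusted p = 2.6e-07, 13 of 14 mice), and the ATP synthase subunits Atp5l and Atp5c1 were at 0.86 ± 0.14 and 0.75 ± 0.14. Cox8b, the muscle form of another subunit, differed most, by 3.79 ± 0.44. Of 82 ribosomal protein genes 29 were higher in uterus and 1 in endometrium (median 0.28), and 52 did not pass. Rpl5, of the large subunit, was at 1878 to 3316 CPM against 741 to 2107 CPM (0.68 ± 0.12, 14 of 14 mice), and Rpl22l1 was at 0.92 ± 0.16. The exception was Rps2 (-1.02 ± 0.23). Many of these genes have processed copies in the genome, so their counts are uncertain. In mice 9 to 14 alone the counts higher in uterus were 3 for oxidative phosphorylation and 1 for ribosomal proteins, with medians of 0.33 and 0.18, and in mice 1 to 8 they were 28 and 28, with medians of 0.45 and 0.37.

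Transcript length moved with the direction of change. Over the 12891 genes with an annotated length, the longest transcript of the gene had a median of 3065 bases, against 1773 bases for genes higher in uterus and 4085.5 bases for genes higher in endometrium. In the shortest quintile of genes 16.2% were higher in uterus and 2.36% in endometrium, and in the longest quintile 1.90% and 9.62%. The rank correlation of length and log2 fold change across genes was -0.30, a description over genes that share libraries and depth. Ribosomal and respiratory chain transcripts are mostly short and Malat1, at 6982 bases, is long, and the part of length in these results was not tested.

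**Figure D5:**
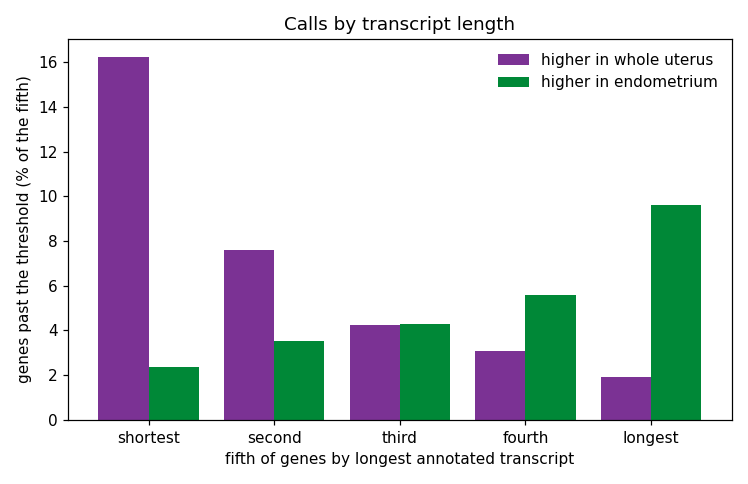
Share of genes past the threshold (y axis, % of the quintile) in each quintile of genes by longest annotated transcript (x axis), higher in whole uterus in purple and higher in endometrium in green. The purple bars fall from 16.2% in the shortest to 1.90% in the longest quintile, and the green bars rise from 2.36% to 9.62%.

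Set beside the myometrium, the intact horn lay between the other tissues for the smooth muscle list. Both comparisons share the uterus samples, so their values are given side by side only. Against myometrium 14822 genes were tested, and 14.2% were higher in uterus and 11.8% in myometrium. The 20 smooth muscle genes were all higher in myometrium, with a median of -1.005, Acta2 at -0.996 and Myh11 at -1.25, beside 3.92 and 3.41 against endometrium. The 20 epithelial genes were all higher in uterus than in myometrium, with a median of 2.56, Epcam at 2.70, beside -0.46 against endometrium. Of 8 mesothelial genes 4 were higher in uterus than in myometrium (median 2.17), Upk3b by 2.40 against myometrium and 4.44 against endometrium, while Wt1 was at -0.44 against each and Gpm6a at 0.60 against myometrium, not past the threshold. The mast cell genes Cma1 and Mcpt4 were at 0.39 and 0.44 between uterus and myometrium, neither past the threshold (edgeR adjusted p = 0.355 and 0.354). Sox4, Zbtb20, Ehmt2, H2-D1 and Ly6a were lower in uterus than in both, at -1.55, -1.45, -1.08, -1.03 and -0.94 against myometrium. The same held for Fbn1, Nr2f2, Jund, Pdgfra, Igf1r and Lrp10, at -1.85, -1.38, -1.35, -1.10, -1.03 and -0.68. Their higher level in endometrium than in uterus is therefore not particular to the endometrium. Anpep, Tfcp2l1 and Cbs were higher in uterus than in myometrium, by 1.12, 0.97 and 0.77, and Myh14 and Dio2 did not pass. Retnlg was higher in uterus than in both, by 2.65 and 2.76. So were Slpi, Tyrobp, C1qa, Cd74 and Lyz2, by 2.29, 1.37, 1.32, 1.07 and 0.67 against myometrium, while Csf1r passed against neither. Rps3 and Rpl22l1 also passed against both, at 0.51 and 0.49 against myometrium.

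The difference between uterus and endometrium was compared between genotypes. Of 14194 genes, 0 passed for the interaction of genotype and tissue in edgeR and 0 in DESeq2, and 532 and 354 had an unadjusted p under 0.05. The gene with the smallest p was Cdc42ep1, an effector of the Cdc42 GTPase, with an interaction of -1.80 ± 0.44 (edgeR adjusted p = 0.962). For Acta2 the mean within-mouse log2 difference was 2.97 in WT and 4.88 in KO, and the interaction, fitted with edgeR across all genes, was 2.12 ± 0.60 (edgeR adjusted p = 0.962). Without KO mouse 13, whose endometrium resembled whole uterus, 10 genes passed, Acta2, Actg2, Cnn1, Tagln, Myh11, Myl9, Pcp4, Tpm2, Acta1 and Fhl1, with Acta2 at 2.68 (edgeR adjusted p = 0.000105). Without mouse 13 and WT mouse 3 the number was 4, namely Acta2, Actg2, Cnn1 and Tagln, and with a robust estimate of the spread and without mouse 13 it was 0 (smallest edgeR adjusted p = 0.870). The mean layer score difference, uterus minus endometrium, was -3.24 in WT and -4.53 in KO mice. The part of the muscle carried by each scraping in the interaction was not tested.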

How the data were processed

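The values analysed were gene counts deposited by the authors in 1 table of the whole series. Per the labels and the study's methods, 10 ng of RNA per sample went into a single 46-plex library, and reads were demultiplexed, merged by molecular tag, trimmed and mapped to mm9. The submitters' processing notes name HTSeq and the methods name other counting software, and neither gives the treatment of strand or multimapped reads. Counts were taken as deposited; 92 spike-in entries were left out of library sizes, and the 3 endometrium libraries of mouse 13 were summed. Genes that reached 1 CPM in 5 or more of the samples were fitted with edgeR 4.0.16 (R 4.3.3; TMM factors; quasi-likelihood F test) with tissue and mouse as terms, at a Benjamini-Hochberg adjusted p under 0.05. The pairing comes from the mouse number in the labels. Deviations from the group means correlated at 0.160 on average within mice (-0.007 to 0.302) and at -0.026 between mice.

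Genes were named by rule: the layer genes and Plag1; in each direction the 12 largest changes with average log2 CPM of at least 5, changed the same way in at least 13 mice; for each list the 4 members with the smallest p past the threshold and its first 3 members; and the leading gene of the interaction. Other named genes were chosen after their values were seen. The lists and the comparison itself were chosen with earlier results of these data known. Depth and spike-in share were compared with exact sign-flip permutation tests, whose smallest possible p with 14 mice is 0.00012207. Each mouse is 1 animal, so the tests compare animals, and the edgeR p-values also rest on spread shared between genes. DESeq2 1.42.0, limma 3.58.1 and the settings in the closing section were alternatives. The procedure was tested on simulated data. Gene positions are mm9 and promoter windows are RefSeq GRCm38.p6, matched by symbol.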

Additional observations from a re-analysis of the deposited data

Results flagged for a closer look

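Within-mouse differences and layer scores were examined for single samples far from the rest of their group in 72 groups, of which chance would give about 5%, and 12 were found. KO mouse 13 gave 10 of them. Its endometrium had a layer score of -3.16, against 0.74 to 3.56 in the other 6 KO mice. Its log2 difference of uterus minus endometrium was -0.83 for Des (others 1.97 to 3.38), -0.69 for Myh11 (3.59 to 6.06), 0.37 for Cnn1 (4.43 to 7.10) and -0.54 for Myl9 (4.09 to 6.26). It was 0.39 for Pcp4 (4.62 to 7.74), 0.56 for Tpm2 (4.24 to 5.77) and 0.68 for Acta1 (4.05 to 6.23). The mast cell proteases went with the muscle genes, at 0.30 for Mcpt4 (3.61 to 5.10) and 0.0013 for Cma1 (3.55 to 5.61). Its 3 endometrium libraries gave layer scores of -3.23, -3.28 and -3.07, so the departure was shared by all of them.

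The other 2 were single genes in WT mice. Dio2 was at 0.47 in mouse 10, with 10.5 CPM in uterus and 6.97 CPM in endometrium, against -2.74 to -1.43 in the other WT mice. H2-D1 was at -4.57 in mouse 7, with 39.5 CPM in uterus and 996 CPM in endometrium, against -1.54 to 0.48 in the others.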

How the results depend on the processing

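The comparison of uterus with endometrium called 1626 genes, and 1032 with spike-in scaling, 869 at an adjusted p under 0.01, 193 in mice 9 to 14 only, 671 in WT only and 475 in KO only. Leaving out 1 mouse gave 1327 to 1698. The spike-in scaling put 91.6% of calls higher in uterus, against 56.9%. Its fit also took each gene's spread wholly from the trend over genes, so scaling and spread changed together. No call shared with an alternative changed direction. With no replicate block 1262 genes were called, 1152 of them shared. Of 125 named genes called, 99 were kept with spike-in scaling and 26 lost, all higher in endometrium, 97 without the block, 61 in mice 9 to 14 and 115 without mice 3 and 13. Fewer samples enter the fits on subsets of mice. For other losses the cause was not tested. With 1 mouse left out, 19 to 20 smooth muscle and 33 to 41 oxidative phosphorylation genes were called, against 20 and 35. Without mice 3 and 13 the counts moved from 4 to 2 for stromal genes higher in endometrium, from 2 to 4 for contraction genes, from 2 to 1 for nerve genes and from 1 to 2 for neutrophil genes. Single mice decided calls near the threshold. Without 1 mouse, the call was lost for Cldn3 (mouse 10, -0.43), Esr1 (mouse 6, -0.56), Fbn1 (mice 1 and 13, -0.67 and -0.64) and Mbp (mice 1, 2, 9 and 13, 0.82 to 0.94). The same held for Epcam (mice 2, 4, 5, 9, 10 and 12, -0.44 to -0.38), Mki67 (mice 3, 4, 5, 6 and 10, -1.06 to -0.94) and Sfrp2 (mice 3, 4, 6, 9 and 11, -0.56 to -0.46). For Spink1, Flt1 and Wnt5a 8, 8 and 9 different mice did so, with values of -0.59 to -0.48, -1.06 to -0.88 and -0.92 to -0.73.

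The interaction of genotype and tissue called 0 genes, but 1 with spike-in scaling, 15 with no filter (15 also with a robust spread), 9 with counts thinned to equal depth within mice, 21 in mice 1 to 8 only (1 with a robust spread) and 4 without mice 3 and 13. Leaving out 1 mouse gave 0 to 10. With no replicate block the interaction gave 0. In mice 9 to 14 the depth difference was 62154 counts (exact p = 0.344) and the spike-in share difference -0.297 percentage points (exact permutation p = 0.0625). The alternatives without mice 3 and 13 and with a robust spread were chosen after seeing the data. Depth limits genes under about 2.45 to 11.7 CPM, the range of the floor of 3 counts.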

Other observations

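The endometrium of WT mouse 8 stood out after its values were seen, in genes of other epithelia, of fat and of nerve. The summed level of the oviduct list was 5140 CPM in its endometrium and 137 CPM in its uterus, and the motile cilia list was at 412 and 89.7 CPM in the same order. Ovgp1 alone made up 5058 CPM of the oviduct sum in endometrium. The mesothelial list of mouse 8 was at 216 CPM in endometrium and 85.1 CPM in uterus, with Msln, mesothelin, at 24.3 and 5.75 CPM. In the same order, its adipocyte list was at 134 and 70.2 CPM and its nerve and Schwann cell list at 40.9 and 18.4 CPM. The adipocyte list was also higher in the endometrium of WT mouse 3, at 251 CPM against 110 CPM in uterus. No explanation of these values was tested.

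Over all 14194 genes tested, 58.0% had a larger SD of log2 CPM in endometrium, with median SDs of 0.613 in endometrium and 0.573 in uterus. Of 3175 genes with an average log2 CPM of at least 5, 65.9% did. For Acta2 the SD was 2.29 in endometrium and 0.37 in uterus. The genes Prss29, Prss28, Ltf and Clca1 ranged over more than an order of magnitude between mice in both tissues.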
